A study of Rattus norvegicus with 8 samples.

Results

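The genes described here were higher with forskolin than with its vehicle in INS-1 cells kept at 2.8 mM glucose, and no higher with forskolin than with vehicle at 20 mM glucose. INS-1 is an insulin-secreting rat insulinoma line that stands in for the pancreatic beta cell, and the labels do not name a subclone. The rule took genes of the deposited glucose table with a mean of 1 FPKM or more over the 4 libraries, no value of 0, and a forskolin value at 20 mM that did not exceed the DMSO value at 20 mM. FPKM is the number of fragments divided by transcript length and library size. Of 1344 genes in the table, 1046 met the conditions on level and 59 of them (5.64%) met the condition on forskolin. Another 6 were set aside by name, which left 53. In the whole table, a total of 195 genes were at or below DMSO at 20 mM, of which 53 other genes had a 0 in some library and 83 had a mean below 1 FPKM, so the selected genes are the better expressed part of that set.

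Before harvest, cells spent 3 days in 2.8 or 20 mM glucose, and 10 uM forskolin or DMSO was given for 2 h, with 1 library for each of the 4 groups. A second experiment at 11 mM glucose, also with 1 library per group, set uninfected cells beside cells carrying an A-CREB adenovirus for 2 days, each with forskolin or DMSO. The controls of that experiment received no virus, so infection and A-CREB cannot be told apart. The comparison of the glucose libraries asks what sustained high glucose does to the acute cAMP response of these cells.

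Forskolin switches on adenylyl cyclase, and the cAMP that is made frees the catalytic subunits of protein kinase A. These phosphorylate CREB, which binds the cAMP response element (CRE) of its target promoters and recruits coactivators. In beta cells this route carries the signal of incretin hormones, and its early targets include regulators that later damp the response. A-CREB acts as an inhibitor by pairing with CREB, which then cannot bind its DNA sites.

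With 1 library per group no difference had a replicate check, none was tested, and every value describes these libraries alone. The selected genes were chosen from the 20 mM forskolin and DMSO values, and the whole table lists only genes more than 2-fold higher with forskolin at 2.8 mM. Ratios built from these columns are therefore a description of the choice. In bulk RNA a lower value cannot be assigned to fewer expressing cells or to less RNA per cell. The spacing of low FPKM values gave depths, relative to the 2.8 mM DMSO library, of 0.742 (2.8 mM forskolin), 1.22 (20 mM DMSO) and 0.827 (20 mM forskolin). In that order 56.5%, 60.5% and 62.8% of 223 weakly expressed genes fell on steps of small whole numbers, so the depths are approximate. A single read was worth 0.0557 FPKM at the median of 53 weakly expressed genes in the 2.8 mM DMSO library, with quartiles of 0.0348 and 0.0748 FPKM. At that worth, used for every gene whatever its transcript length, 18 of the 53 selected genes had fewer than 20 reads in some library. Of 7 beta cell markers looked for, 1 was listed in the table (MafA), and of 26 markers of other cell types 1 was listed (Kdr). A marker that is not listed may still be expressed, since the table holds induced genes only.

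The CRE is the letters TGACGTCA, which read the same on both strands, and its half-site is TGACG. RefSeq promoter windows (GRCr8, 250 bases before to 50 after each gene start) were found for 40 of the 53 genes. The full CRE stood in the windows of 2 of these 40 against 64 of 779 other genes of the table (8.22%) and 549 of all 27457 genes with a window (2.00%). The 2 genes were Med31 and Nubpl, so their sequences are printed. Hdac5 and Il6r are shown as genes with half-sites only. Each stretch is 80 bases, 5′ to 3′ in the direction of the gene, and capitals mark the CRE in Med31 and Nubpl and the half-site, on either strand, in Hdac5 and Il6r.

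Med31 (chr10:57339060-57339139, minus strand): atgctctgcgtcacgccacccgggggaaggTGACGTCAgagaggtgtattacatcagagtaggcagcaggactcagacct
Nubpl (chr6:75294561-75294640, plus strand): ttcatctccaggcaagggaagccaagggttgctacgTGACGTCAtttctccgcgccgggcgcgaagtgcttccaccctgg
Hdac5 (chr10:87688055-87688134, minus strand): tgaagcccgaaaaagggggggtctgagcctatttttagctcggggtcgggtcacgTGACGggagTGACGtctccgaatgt
Il6r (chr2:177645333-177645412, minus strand): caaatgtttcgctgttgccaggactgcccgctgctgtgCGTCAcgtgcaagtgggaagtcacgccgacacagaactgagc

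The CRE began 220 bases before the start of Med31 and 55 bases before that of Nubpl. In Hdac5 the half-sites began 25 and 16 bases before the start, and in Il6r the half-site began 165 bases before it, on the opposite strand. The half-site, which also lies within every full CRE, was found in 13 of the 40 windows (32.5%), in 47.6% of the other genes of the table and in 23.0% of all genes. The E-box CACGTG was in 7.5%, 13.4% and 7.08% of the same 3 sets, and the CCAAT box in 42.5%, 34.4% and 39.6%. The hypoxia response core ACGTG, which lies within every CACGTG, was in 10 of the 40 windows, 31.8% of the other genes of the table and 20.9% of all genes. The core CCACG of the ER stress element was in 20 of the 40, 53.1% and 34.1%, and TATAAA in 4 of the 40, 8.73% and 15.3%. All were searched on both strands. A match describes letters in a window and not a bound site.

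The 53 genes were weakly induced at 2.8 mM compared with the rest of the table. Their median forskolin over DMSO ratio at 2.8 mM was 2.54, with a range of 2.00 to 8.58, against a median of 3.05 in the other 993 genes. A ratio of 4 or more at 2.8 mM was found in 7 of 53 (13.2%), and in 32.8% of all 1046 genes that met the conditions on level. Those 7 were Guca2a, Cdo1, G0s2, Prickle2, Hr, Il6r and Rasgrp2. The expression of the 53 was also low, with a median mean of 6.98 FPKM against 27.2 FPKM in the other genes. The mean includes the values that the rule used, so nothing is read from this difference. Whether counting error in genes with few reads adds to it was not tested. A mean of 100 FPKM or more was found in 7 of the 53. The share over all 1046 genes was not counted, so nothing is read from the 7. The upper quartile of the mean was 27.7 FPKM in the 53 and 69.2 FPKM over all 1046 genes.

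**Figure D1:**
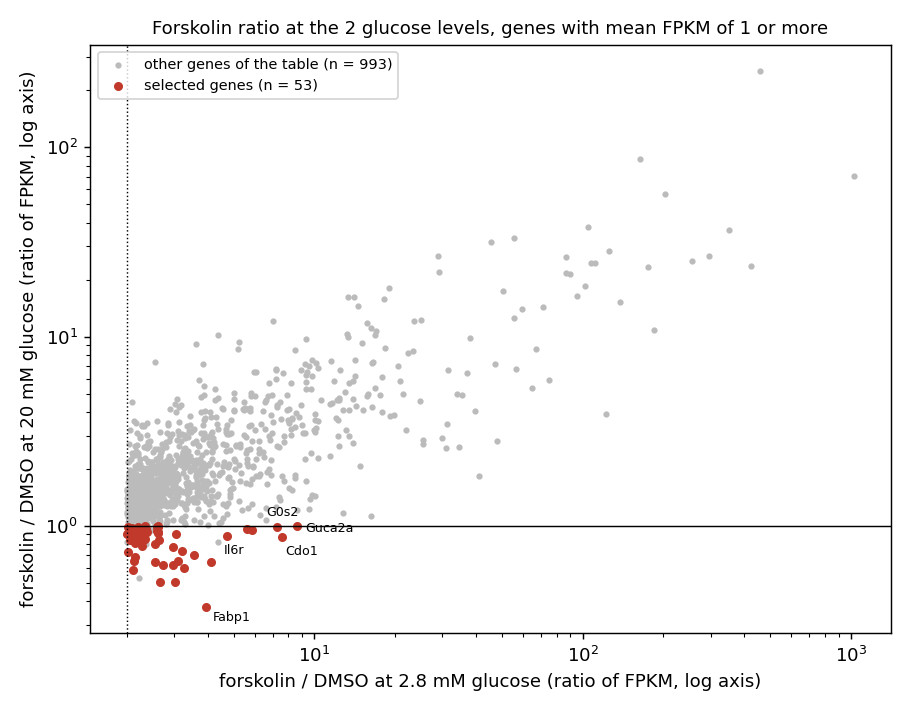
Forskolin over DMSO ratio of FPKM at 2.8 mM glucose (x) and at 20 mM glucose (y), both on log axes, for the 1046 genes with a mean of 1 FPKM or more and no 0. Points are genes, red points are the 53 selected genes, the solid line marks equal values at 20 mM and the dotted line the 2-fold listing at 2.8 mM. The red points gather at the left, with 7 of 53 at a ratio of 4 or more at 2.8 mM.

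At 20 mM the forskolin over DMSO ratio of the 53 had a median of 0.883 and a range of 0.374 to 1.00. In 13 genes forskolin was within 5% of DMSO, in 18 it was more than 20% below, and in 11 it was below by more than 1.5 times. The most extreme value was that of Fabp1, a fatty acid carrier of liver and intestine. The edge of the rule fell among genes that differ very little. Just inside it were Rps25, Bag2, Guca2a and Srsf5, with 20 mM ratios of 1.000, 0.996, 0.995 and 0.991. Just outside were Hspd1, Pdrg1, Eif3a and Bex2, with ratios of 1.001, 1.001, 1.001 and 1.002. Within 10% of equality there were 22 selected genes below and 49 other genes above.

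How far the choice depends on the scaling of 1 library was checked by multiplying the 20 mM forskolin values by a factor. With a factor of 1.1 the rule chose 32 genes, all among the 53. With a factor of 0.9 it chose 106 genes, which included all 53. The authors' scaling of libraries was not given in the sources used here, so membership of the genes near equality is uncertain. The factors were set by choice and do not measure the error of the scaling.

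**Figure D2:**
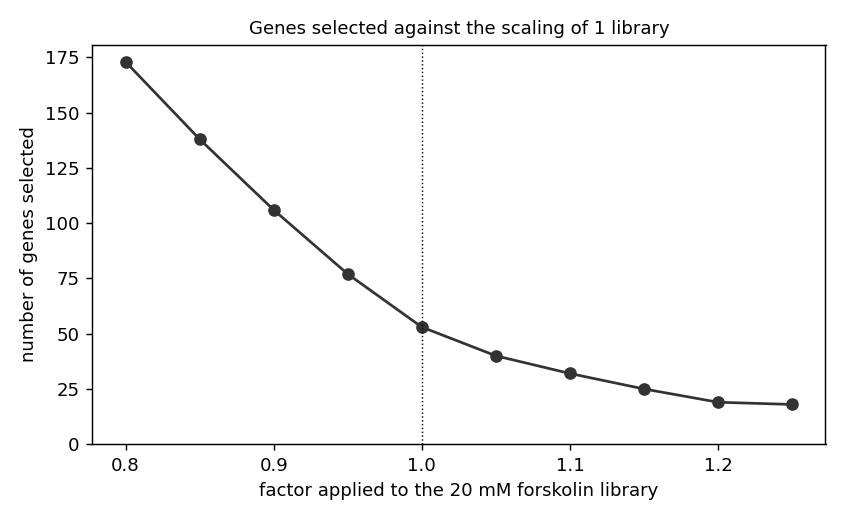
Number of genes the rule selects (y) when the 20 mM forskolin values are multiplied by the factor on the x axis, with the dotted line at the deposited scaling. The number goes from 173 at 0.8 through 53 at 1 to 18 at 1.25.

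By construction each selected gene had a 20 mM over 2.8 mM ratio that was more than 2 times larger in DMSO than in forskolin. The genes differed in which of these levels moved. In 26 of 53 (49.1%) the DMSO level at 20 mM was more than 1.5 times that at 2.8 mM, against 28.6% of all 1046 genes. A DMSO level lower at 20 mM beyond that range was found in 8 (15.1%, against 15.4%) and within 1.5 times in 19. The forskolin level was lower at 20 mM by more than 1.5 times in 30 genes (56.6%, against 53.6% of all), within that range in 19, and higher in 4 (7.55%, against 6.88%). Since the rule favours high 20 mM DMSO values and low 20 mM forskolin values, nothing further is read from these shares.

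Combining both levels gave 5 patterns. In every selected gene the rule and the listing held the 20 mM over 2.8 mM ratio lower in forskolin than in DMSO. This largely fixed which patterns could occur. The patterns were not counted over all 1046 genes, so nothing is read from their counts. In 19 genes DMSO was higher at 20 mM and forskolin was about level, and in another 19 DMSO was about level and forskolin was lower. Both levels were lower in 8 genes and both were higher in 4. In the remaining 3 (Guca2a, Eif5b and LOC688869) DMSO was higher and forskolin lower. In 20 of the 53 the 20 mM DMSO value exceeded even the 2.8 mM forskolin value, which was so in 5.93% of all 1046 genes, and here too the 20 mM DMSO value is part of the rule. In 14 genes the 20 mM forskolin value exceeded the 2.8 mM forskolin value (26.4%, against 19.3%), and in 19 it lay below the 2.8 mM DMSO value (35.8%, against 9.56%), with the 20 mM forskolin value again part of the rule.

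**Figure D3:**
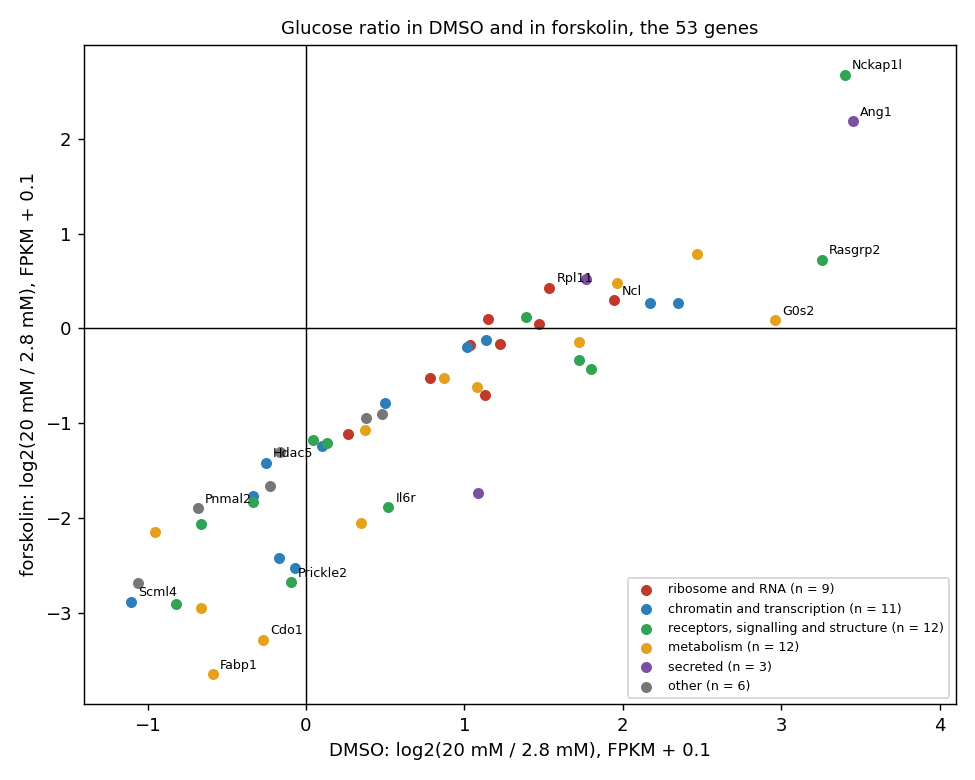
For each of the 53 genes, log2 ratio of 20 mM over 2.8 mM glucose in DMSO (x) and in forskolin (y), on the scale of FPKM + 0.1, coloured by role. Points right of the vertical line were higher at 20 mM in DMSO and points below the horizontal line were lower at 20 mM in forskolin. The ribosome and RNA genes all lie to the right of the vertical line, while Fabp1, Cdo1 and Scml4 lie low.

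Genes of ribosomes and RNA handling made up 9 of the 53, and all 9 had a higher DMSO level at 20 mM than at 2.8 mM, and in 8 the difference exceeded 1.5 times (57.7% and 28.6% of all 1046 genes). The 20 mM DMSO level is part of the rule, so nothing is read from these counts or from those of the other role groups. Their median log2 DMSO ratio was 1.15, against 0.15 over all 1046 genes, and their median log2 ratio in forskolin was -0.16, against -0.65. From here on a pair of values gives DMSO before forskolin, and 4 values run in the order 2.8 mM DMSO, 2.8 mM forskolin, 20 mM DMSO and 20 mM forskolin. Rpl11, a protein of the large ribosomal subunit, was at 88.6 (DMSO) and 185 FPKM (forskolin) at 2.8 mM, against 257 and 250 FPKM at 20 mM. Both 20 mM values of Rpl11 were above both 2.8 mM values. Rpl17, of the same subunit, was at 58.0 and 118 FPKM at 2.8 mM, against 129 and 126 FPKM at 20 mM, so its 20 mM values lay just above the 2.8 mM forskolin value. Rps24, of the small subunit, was at 52.5 and 117 FPKM at 2.8 mM, against 108 and 104 FPKM at 20 mM, slightly under the 2.8 mM forskolin value. Rps25 was far lower, at 1.07 and 2.80 FPKM at 2.8 mM and at 1.92 FPKM in both 20 mM libraries.

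Ribosomal protein genes have many near-identical pseudogenes, and how the authors shared such reads out was not given in the sources used here, so the levels of these 4 genes are uncertain. The other ribosomal protein names of the table, looked up after the 53 were known, gave a wider view. The table held 14 such names that met the conditions on level, of which 4 were selected and 10 were not. All 14 had a higher DMSO level at 20 mM than at 2.8 mM, and in 12 the difference exceeded 1.5 times. Over all 1046 genes these shares were 57.7% and 28.6%. Their 20 mM forskolin over DMSO ratios ran from 0.965 to 2.28 with a median of 1.20, against 1.81 over all 1046 genes. Of the 14, 1 reached 2-fold (42.4% of all 1046 genes did). The rule held the 4 selected genes at or below 1, so they set the low end and could not reach 2-fold. The rule also favours high 20 mM DMSO values in these 4. The 10 that were not selected ran from 1.07 (Rpl37a-ps1) to 2.28 (Rps28). Rps15 was at 415 and 1329 FPKM at 2.8 mM, against 1221 and 1602 FPKM at 20 mM. It shared the high 20 mM DMSO level but lay above DMSO with forskolin, and so was not selected.

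Ncl encodes nucleolin, a nucleolar protein of ribosome assembly. It was at 35.9 (DMSO) and 94.7 FPKM (forskolin) at 2.8 mM, against 139 and 116 FPKM at 20 mM. Its DMSO level was 3.86 times higher at 20 mM, and both 20 mM values were above the 2.8 mM forskolin value. Srsf5, a splicing factor of the SR family, differed from the rest of this group. It was at 70.4 and 182 FPKM at 2.8 mM, against 84.5 and 83.7 FPKM at 20 mM, so its DMSO levels were close and its forskolin level was 2.17-fold lower at 20 mM. Lsm5, part of the ring that binds U6 RNA in the spliceosome, was at 7.37 and 15.8 FPKM at 2.8 mM, against 17.4 and 14.1 FPKM at 20 mM. Eif5b, a factor that joins the ribosomal subunits, and Pabpc2, a poly(A)-binding protein, had no value above 2.12 FPKM.

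Chromatin and transcription genes numbered 11, with a DMSO level at 20 mM higher by more than 1.5 times in 4, lower in 1, and a forskolin level lower by more than 1.5 times in 7 (28.6%, 15.4% and 53.6% of all 1046 genes). Hdac5, a class IIa histone deacetylase whose nuclear location is set by kinases of the SIK family, was at 87.5 (DMSO) and 193 FPKM (forskolin) at 2.8 mM. At 20 mM it was at 73.4 and 72.0 FPKM. The 2.8 mM forskolin library alone was high for Hdac5, and the other 3 libraries were alike. Anp32e, a chaperone that removes the histone variant H2A.Z, had the opposite layout, with 95.5 FPKM in 2.8 mM DMSO and 206, 210 and 189 FPKM in 2.8 mM forskolin, 20 mM DMSO and 20 mM forskolin. Here the 2.8 mM DMSO library alone was low.

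Med31, a subunit of the Mediator complex and 1 of the 2 genes with a full CRE in the window, was at 19.9 and 61.9 FPKM at 2.8 mM, against 17.7 and 11.4 FPKM at 20 mM. Its forskolin level was 5.41-fold lower at 20 mM, and its 20 mM forskolin value was the lowest of the 4. Phf17, which encodes JADE1 of a histone acetyltransferase complex, was at 17.7, 40.5, 19.0 and 17.1 FPKM in 2.8 mM DMSO, 2.8 mM forskolin, 20 mM DMSO and 20 mM forskolin, with only 2.8 mM forskolin high. Smad3, a transducer of TGF-beta signals, was at 2.82, 5.68, 2.21 and 1.60 FPKM. Like Med31 it had DMSO levels within 1.5 times of each other and a lower forskolin level at 20 mM.

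Id2, which binds and inhibits basic helix-loop-helix factors, was the only selected gene among 28 CREB early response genes meeting the conditions on level. The other 27 all reached 2-fold at 20 mM. Of all 1046 genes 5.64% were at or below DMSO and 42.4% reached 2-fold at 20 mM. The list holds strongly induced genes, with a median log2 ratio of 3.86 at 2.8 mM against 1.56 over all 1046 genes. It was fixed with earlier results of these data known, so nothing is read from these counts. Id2 was at 2.28 (DMSO) and 6.79 FPKM (forskolin) at 2.8 mM, against 10.6 and 8.22 FPKM at 20 mM. Both 20 mM values were above both 2.8 mM values, with a DMSO ratio of 4.66. Nsbp1, a nucleosome-binding protein of the HMGN family, was laid out the same way at 2.41, 6.55, 12.7 and 7.90 FPKM. Scml4, a Polycomb-like protein, was at 4.37 and 9.18 FPKM at 2.8 mM, against 1.98 and 1.15 FPKM at 20 mM, lower at 20 mM with either treatment. Hr, the nuclear receptor corepressor hairless, was at 1.47, 8.24, 1.40 and 1.35 FPKM, with only the 2.8 mM forskolin library high. Uri1, a prefoldin-like protein, and Tbx15, a T-box factor, had 20 mM forskolin over DMSO ratios of 0.959 and 0.841.

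Receptors, signalling proteins and structural proteins numbered 12. Il6r, the receptor of interleukin-6, was at 15 (DMSO) and 70.9 FPKM (forskolin) at 2.8 mM, against 21.5 and 19.1 FPKM at 20 mM. Its 2.8 mM ratio of 4.73 was the largest among genes of this set with a mean above 10 FPKM except G0s2, and its forskolin level was 3.71-fold lower at 20 mM. Il17rb, a receptor of interleukin-25, differed in that DMSO carried the difference, at 6.40 and 13.7 FPKM at 2.8 mM and 16.9 and 14.9 FPKM at 20 mM. Flcn encodes folliculin, a regulator of mTORC1 and of the factor TFE3, and was at 27.0, 63.9, 29.6 and 27.5 FPKM in the order 2.8 mM DMSO, 2.8 mM forskolin, 20 mM DMSO and 20 mM forskolin. As for Hdac5, only the 2.8 mM forskolin value stood out.

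Both Prickle genes, which act in planar cell polarity, were selected. Prickle1 was at 9.87 and 25.8 FPKM at 2.8 mM, against 6.19 and 6.11 FPKM at 20 mM. Prickle2 was at 2.93 and 17.2 FPKM at 2.8 mM, against 2.74 and 2.60 FPKM at 20 mM. Their forskolin levels were 4.23-fold and 6.61-fold lower at 20 mM, while the DMSO level was 1.59-fold lower for Prickle1 and 1.07-fold lower for Prickle2. Mtss1l, a membrane-bending regulator of actin, had the same layout at 39.9, 104, 31.7 and 29.3 FPKM.

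Rasgrp2, an exchange factor that activates the GTPase Rap1, was at 0.777 (DMSO) and 3.19 FPKM (forskolin) at 2.8 mM, against 8.28 and 5.35 FPKM at 20 mM. Nckap1l, a subunit of the WAVE actin complex known from blood cells, was at 0.0971 and 0.197 FPKM at 2.8 mM, against 1.98 and 1.80 FPKM at 20 mM. The 2.8 mM values of Nckap1l stood for about 2 or 3 reads at the median worth, so its 2-fold listing rests on almost no reads, whereas its 20 mM values stood for about 43.5 and 26.8 reads. In this group of 12, Bag2, a co-chaperone of Hsp70, was at 9.39, 21.9, 9.69 and 9.65 FPKM, with a single high library. Tnnc1, a troponin, Pcdhgb7, a protocadherin, and Krt73, a keratin, had means below 2 FPKM.

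Metabolic genes numbered 12, with a DMSO level higher at 20 mM by more than 1.5 times in 6 and a forskolin level lower by more than 1.5 times in 7 (28.6% and 53.6% of all 1046 genes). G0s2, an inhibitor of the lipase that starts triglyceride breakdown, was at 19.2 (DMSO) and 139 FPKM (forskolin) at 2.8 mM, against 150 and 148 FPKM at 20 mM. The 2.8 mM DMSO library alone was low, and the other 3 lay within 1.5 times of each other. Its DMSO ratio of 7.83 was the highest among the genes with a mean above 10 FPKM. Cdo1, cysteine dioxygenase, was laid out the other way, at 1.54 and 11.6 FPKM at 2.8 mM, against 1.26 and 1.1 FPKM at 20 mM. A single library, 2.8 mM forskolin, was high for Cdo1.

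Mvk encodes mevalonate kinase of the sterol pathway and was at 29.0 and 66.6 FPKM at 2.8 mM, against 37.5 and 31.5 FPKM at 20 mM. It was the only selected gene among 7 of the sterol and lipid synthesis list that met the conditions on level. Of all 1046 genes 5.64% were at or below DMSO at 20 mM. Cyp51, a demethylase further along the same pathway, was at 13.1 and 51.9 FPKM at 2.8 mM, against 22.3 and 46.8 FPKM at 20 mM. Of the 7 genes 3 reached 2-fold at 20 mM, against 42.4% of all 1046 genes, so nothing is read from this count. Sms, spermine synthase, and Nubpl, an assembly factor of respiratory complex I with a full CRE in its window, had low values with a higher DMSO level at 20 mM. Nubpl was at 0.374, 1.20, 1.46 and 1.08 FPKM in 2.8 mM DMSO, 2.8 mM forskolin, 20 mM DMSO and 20 mM forskolin. Med31, the other gene with a full CRE, had close DMSO levels (1.13-fold lower at 20 mM) and a forskolin level 5.41-fold lower at 20 mM. The layouts of the 2 genes therefore differed.

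Genes of mitochondrial proteins listed under identifiers were also among the 12. LOC688869, matched by gene ID to Cox6b1 of cytochrome c oxidase, was at 5.58 and 11.9 FPKM at 2.8 mM, against 11.9 and 7.70 FPKM at 20 mM. RGD1563216, matched by synonym to Isca2 of iron-sulfur cluster assembly, was at 1.26, 2.95, 2.39 and 2.03 FPKM. For both, 20 mM DMSO was higher than 2.8 mM DMSO.

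The 3 lowest 20 mM ratios were those of metabolic genes with few reads. Fabp1 was at 1.24 and 4.87 FPKM at 2.8 mM, against 0.789 and 0.296 FPKM at 20 mM, the last standing for about 4.4 reads at the median worth. Fggy, a carbohydrate kinase, was at 1.33 and 0.674 FPKM at 20 mM, and Nudt18, a hydrolase of oxidised nucleotides, at 1.87 and 0.946 FPKM. Their 20 mM ratios were 0.505 and 0.506, and counting error at these depths was not tested against a difference of this size. Chst8, a sulfotransferase that acts on glycoprotein hormones, was higher at 20 mM with either treatment, at 1.46 and 4.47 FPKM at 2.8 mM and 8.55 and 7.78 FPKM at 20 mM. Rdh16, a retinol dehydrogenase, was lower at 20 mM with either treatment, at 1.41, 3.23, 0.677 and 0.650 FPKM.

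Secreted proteins numbered 3, each with a higher DMSO level at 20 mM (57.7% of all 1046 genes). Ctrb1, the precursor of the digestive enzyme chymotrypsin and a gene of pancreatic acinar cells, was at 2.78 and 6.12 FPKM at 2.8 mM, against 9.69 and 8.87 FPKM at 20 mM. Other acinar genes of the marker list were not listed in the table. Ang1, matched by synonym to the ribonuclease angiogenin, was at 0.298 and 0.779 FPKM at 2.8 mM, against 4.26 and 3.91 FPKM at 20 mM, with a DMSO ratio of 14.3. Guca2a, the precursor of the gut peptide guanylin, had the highest 2.8 mM ratio of the 53. Its values were 0.399 and 3.42 FPKM at 2.8 mM and 0.960 and 0.955 FPKM at 20 mM, and the 2.8 mM DMSO value stood for about 7.2 reads at the median worth.

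The remaining 6 genes had no role assigned here, and all 6 had a forskolin level more than 1.5 times lower at 20 mM (53.6% of all 1046 genes). Pnmal2, of the PNMA-like family, was the most expressed of the 53, at 229 (DMSO) and 472 FPKM (forskolin) at 2.8 mM, against 143 and 127 FPKM at 20 mM. Both 20 mM values of Pnmal2 were below both 2.8 mM values. LOC100365935, matched by gene ID to Cep85l, was at 9.94, 21.3, 4.71 and 3.22 FPKM, also lower at 20 mM with either treatment. LOC689959, LOC498750 and LOC100363289 had 20 mM ratios between 0.842 and 0.901, and LOC498750 is annotated as a pseudogene.

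**Figure D4:**
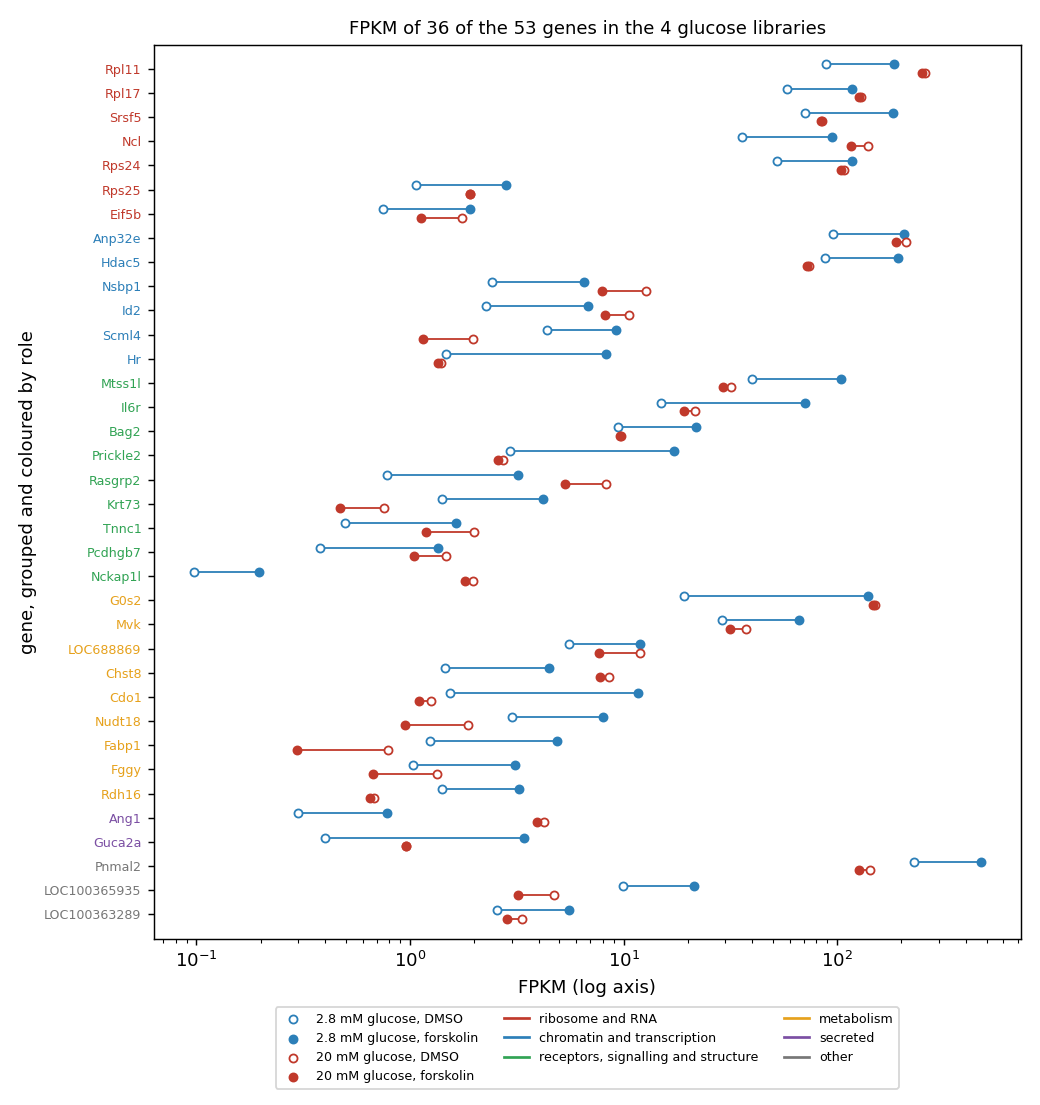
FPKM on a log axis (x) of 36 of the 53 genes (y, grouped and coloured by role) in the 4 libraries, chosen by the rule for named genes, with 2.8 mM glucose in blue, 20 mM in red, open circles for DMSO and filled circles for forskolin. Each point is 1 library, so there are no error bars. The red filled circle is never to the right of the red open circle, as the rule requires, and the red pair lies right of the blue pair for Rpl11, Ang1 and Nckap1l and left of it for Scml4 and Pnmal2.

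Among the pathway lists, the selected genes were nearly absent. Of 14 genes of the cAMP attenuator list, 15 of the unfolded protein and ER stress list, 11 of the beta cell list, 9 of the MAPK feedback list, 9 of the ubiquitin and autophagy list, 8 of the apoptosis and p53 list and 5 of the circadian list that met the conditions on level, none was selected. None was selected of 4 genes each of the hypoxia and glycolysis, interferon and cell cycle lists or of 2 of the ChREBP list. The genes set aside by name are not on any of these lists, so the counts do not cover them, whatever pathway they belong to. Against a background of 5.64% at or below DMSO, lists of this size would hold few such genes in any case, so no list is called particular in this respect.

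The 11 mM glucose libraries took no part in the rule, although their table too lists only genes more than 2-fold higher with forskolin, there in cells without virus. Of the 53 genes 8 were in that table (15.1%), against 28.8% of all 1046 genes and 29.5% of the other 993, and the 8 made up 1.41% of its 566 genes. The 45 others did not reach 2-fold without virus or were not listed for another cause, which cannot be told apart. Levels are not compared between the 2 tables. A read in the no-virus DMSO library was worth 0.111 FPKM at the median of 77 weakly expressed genes.

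All 8 genes had a lower forskolin over DMSO ratio with A-CREB than without virus, as did 97.9% of the 282 genes that met the conditions on level in both tables, so nothing is read from that count. With A-CREB, 4 of the 8 were at or below DMSO. Il6r was at 11.6 (DMSO) and 27.3 FPKM (forskolin) without virus, against 6.46 and 5.79 FPKM with A-CREB. Both A-CREB values of Il6r were below both values without virus. Rps24 was at 88.6 and 228 FPKM without virus and at 182 and 176 FPKM with A-CREB, and Rps25 at 9.50 and 28.4 FPKM and at 24.2 and 14.6 FPKM. In both ribosomal protein genes the A-CREB DMSO value was at least 2 times that without virus, with ratios of 2.05 and 2.55. Prickle2 was at 1.29 and 2.87 FPKM without virus and at 1.58 and 1.54 FPKM with A-CREB, so only the no-virus forskolin library was high.

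The other 4 genes stayed above DMSO with A-CREB. Id2 was at 1.05 and 14.7 FPKM without virus, a ratio of 13.95, and at 4.21 and 4.91 FPKM with A-CREB, a ratio of 1.17. Its DMSO level was 4.0 times higher with A-CREB. Cdo1 was at 0.666 and 4.63 FPKM without virus and at 1.42 and 1.80 FPKM with A-CREB. LOC100363289, which had no match in the gene table, was at 0.820 and 4.73 FPKM and at 0.651 and 1.70 FPKM, and was the only one still at 2-fold or more with A-CREB. Hr had values below 1 FPKM in all 4 libraries, at 0.167, 0.616, 0.620 and 0.784 FPKM in no-virus DMSO, no-virus forskolin, A-CREB DMSO and A-CREB forskolin. A read in the no-virus DMSO library was worth 0.111 FPKM at the median. The values there of Id2, Cdo1, LOC100363289, Hr and Prickle2 therefore stood for few reads, and ratios to them are imprecise.

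Leaving out Hr, whose mean there was below 1 FPKM, 4 of 7 genes were at or below DMSO with A-CREB (57.1%). The same was so for 12.1% of the 282 genes that met the conditions on level in both tables, for 30 of the 275 that were not selected (10.9%), and for 21.2% of the 387 genes that met those conditions in the A-CREB table. The median log2 ratio with A-CREB was -0.04 in the 7 and 0.63 in the 275, and the median without virus was 1.57 and 1.76. Of the 4 genes at or below DMSO, Rps24 and Prickle2 had A-CREB ratios of 0.965 and 0.973, within 5% of DMSO. The scaling of these libraries was not varied, so the count of 4 rests in part on near-equal values. With 7 genes and 1 library per group the comparison is a description and was not tested.

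**Figure D5:**
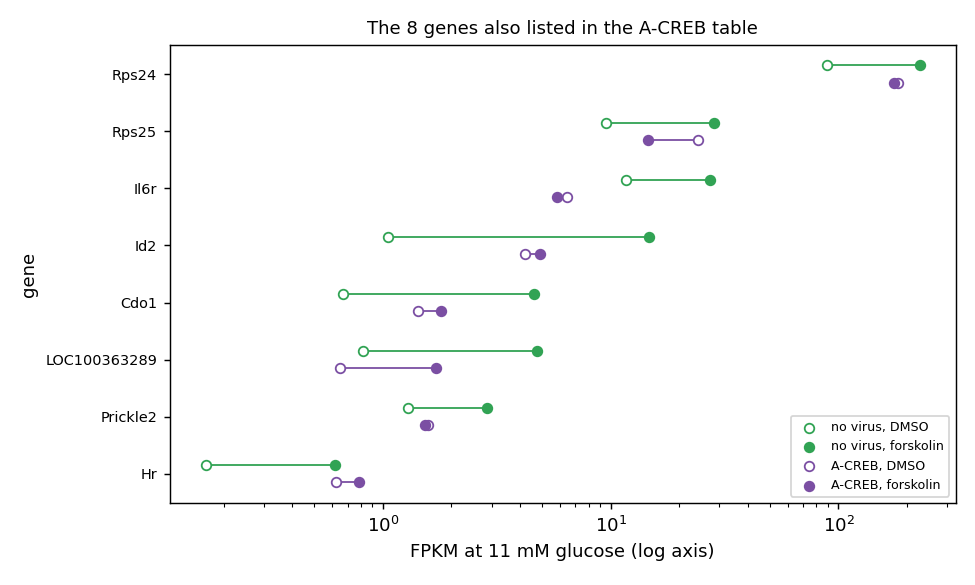
FPKM at 11 mM glucose on a log axis (x) of the 8 genes also listed in the A-CREB table (y), with no virus in green, A-CREB in purple, open circles for DMSO and filled circles for forskolin, 1 library per point. The green pairs are wide for all 8 genes, and the purple filled circle lies left of the purple open circle for Rps24, Rps25, Il6r and Prickle2.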

How the data were processed

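RNA of INS-1 cells was sequenced in 8 libraries, 1 per group, after mRNA isolation (NEBNext Ultra), per the labels' protocols. The submitters' processing notes name TopHat2, Cuffdiff and the rn5 build. For tool versions, annotation, strand use and scaling nothing was given in the sources used here. The authors deposited FPKM in 2 tables of 4 libraries, cut to genes more than 2-fold higher with forskolin in the reference condition (tested on the values), and the tables were kept apart. Each column was tied to a library by its name.

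Ratios are of plain FPKM. A log2 ratio is log2((a + 0.1)/(b + 0.1)), which understates the ratios of weakly expressed genes. Counts use 1.5 times unless stated. Medians have 95% order-statistic intervals over genes in the tables behind the text, used only to compare settings. No test was run. Depth came from ratios between libraries of genes with a mean below 1 FPKM, set to steps of small whole numbers (tolerance 2%, relative depths taken to lie within 1.5 times). The functions were tested on simulated data.

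The genes, the 14 lists and the rule for named genes were chosen with earlier results of these data known. Named genes were the 10 highest means, the 10 highest 2.8 mM ratios, the 10 lowest 20 mM ratios, the 6 highest and 6 lowest DMSO ratios, genes beside the threshold, those in the A-CREB table and list members; others are named to complete their role group. Roles were assigned after the genes were known, and 1 gene is counted but not reported here by name. Of the 53 names 51 matched RefSeq (42 by symbol, 5 by synonym, 4 by gene ID). The alternatives were pseudocounts of 1, 0.01 and 0, a mean of 5 FPKM or none, a 20 mM ratio of at most 0.8, scaling by 1.1 and 0.9, and the excluded names kept in. Python 3.11.15, numpy 2.4.6 and pandas 2.3.3 were used.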

Additional observations from a re-analysis of the deposited data

Results flagged for a closer look

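All 53 genes were above DMSO with forskolin at 2.8 mM and at or below it at 20 mM, opposite directions that the rule itself set and that were not tested. In the 11 mM libraries, which the rule did not use, 4 of the 8 listed genes were lower with forskolin than with DMSO under A-CREB. All 8 were higher with forskolin without virus, a direction that the 2-fold listing set. At or below DMSO with A-CREB were 12.1% of the 282 genes that met the conditions on level in both tables. The share was 21.2% of the 387 that met them in the A-CREB table. For the 4 genes, log2 forskolin over DMSO with A-CREB was -0.037 for Prickle2, -0.051 for Rps24, -0.16 for Il6r and -0.72 for Rps25, against 1.09, 1.36, 1.22 and 1.57 without virus. With A-CREB, Prickle2 and Rps24 were within 5% of DMSO. Each direction rests on 1 library per group, and the differences were not tested.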

How the results depend on the processing

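No paired analysis was possible because each group has 1 library, and for the same reason no library could be left out. The number of genes chosen, 53 as reported, was 30 with a mean of at least 5 FPKM, 133 with no filter on the mean, 18 with a 20 mM ratio of at most 0.8, and 32 and 106 with the 20 mM forskolin values multiplied by 1.1 and 0.9. With the excluded names kept in it was 59. The number listed in the A-CREB table, 8 as reported, was 4, 14, 1 and 4 under the first 4 of those settings, and the number with a CRE in the window, 2 as reported, was 1 with a mean of at least 5 FPKM and 6 with the factor of 0.9. The median log2 forskolin over DMSO at 2.8 mM, 1.22 as reported, was 1.1 with a pseudocount of 1, 1.14 with no filter on the mean and 1.43 with a ratio of at most 0.8, where the median at 20 mM was -0.61 in place of -0.18. The median log2 ratio with A-CREB was 0.09 in the 8 listed genes and -0.04 in the 7 without Hr. It was -0.044 with a mean of at least 5 FPKM and with the factor of 0.9. Its sign therefore turns on which genes are counted and is not settled. The cause was not tested. The log2 glucose ratios in DMSO and in forskolin had medians of 0.52 and -0.91. With a ratio of at most 0.8 these were 1.1 and -0.66, so they depend on that setting. Intervals over genes were wide (0.10 to 1.14 and -1.42 to -0.20) and held the medians under every setting run. They describe the spread over genes and not over libraries, so they do not show that the medians are stable. Of 36 named genes, a pseudocount of 1 moved the log2 ratio at 2.8 mM by more than 1.5 times in 5 (Rasgrp2, Ang1, Guca2a, Tnnc1 and Pcdhgb7) and at 20 mM in 1 (Fabp1), with no sign reversed.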
